A study of Drosophila melanogaster with 16 samples.

Results

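The genes described here are 325 Drosophila genes that still carry a CG number in the deposited tables and whose transcripts were higher in neuroblasts (NBs) than in ganglion mother cells (GMCs) at every age measured. They were chosen from these same values. CPM, the reads of a gene scaled to a fixed library size, were taken over all gene counts and averaged in each group, and a gene was kept where log2((GMC mean + 1)/(NB mean + 1)) was at most -0.75 at 1.5, 3 and 5 h alike and the mean over the 16 libraries was at least 5 CPM. The rule took 325 of 16364 genes, or of 7068 genes with a CG number, of which 2595 passed the CPM floor. The mirrored rule, for CG genes higher in GMCs, took 11.

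The study profiled poly(A) RNA of type I NBs and their GMCs from larval brains, in 16 libraries of 6 groups. All groups, called wild type in the titles, carried ase-GAL4, a driver active in type I NBs, with the nuclear marker UAS-stinger::GFP and with UAS-dcr2. NBs sorted from brains of wandering larvae of the third instar were kept in culture for 1.5, 3 or 5 h while they divided, and a second sort then parted them from their new GMCs. There were 3 libraries in each group but the GMCs of 3 h and of 5 h, which had 2.

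A type I NB is a stem cell that divides asymmetrically: it renews itself and buds off a smaller GMC, which as a rule divides once more into neurons or glia. NBs grow back between divisions, which calls on ribosome production, nucleotide supply and mitochondrial metabolism. A CG number is the label that the genome annotation gave to a predicted gene. It says that the gene had no other name in the table used, and not that nothing is known of it: of the 325 genes, 70 have another symbol in current reference tables, or 21.5%, against 23.7% of the other CG genes past the floor.

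Gene counts ran from 6899670 to 21207182 per library. Nothing in the labels says that replicates were separate cultures, so the spread behind each p-value may be technical. Each age ran on its own flow cell by the file names, so age and run cannot be told apart. Dcr-2 was at 4271 ± 387, 4346 ± 1520 and 296 ± 108 CPM in NBs of 1.5, 3 and 5 h (SD, n = 3 each). In GMCs it was at 10060 ± 2131 (n = 3), 20600 ± 3400 and 165 ± 19.2 CPM (n = 2 each). Whether the 5 h libraries expressed UAS-dcr2 like the others was not tested, and such a difference cannot be told apart from age. Neuroblast markers went with the labels only in part: of 11 listed, 8, 7 and 5 were lower in GMCs at 1.5, 3 and 5 h and 1, 2 and 2 were higher. Of 4 tested markers of GMCs and differentiation, 4, 4 and 3 were higher in GMCs and 0 were lower. The stem cell factor dpn was 148.5 ± 34.9 CPM in NBs of 1.5 h and 46.1 ± 10.4 CPM in the GMCs (SD, n = 3 each), whereas ase, the gene behind the driver, was 435 ± 73.7 CPM in NBs of 5 h (n = 3) and 1427 ± 233 CPM in the GMCs (n = 2). NB replicate 1 of 5 h stood apart, with a score of -38.7 on the first principal component of all genes where NB replicates 2 and 3 had 79.0 and 66.1. In bulk samples, fewer cells that express a gene and less RNA per cell cannot be told apart.

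Together the 325 genes took a larger share of the NB libraries than of the GMC libraries. In NBs they held 2.24 ± 0.0517%, 2.17 ± 0.0945% and 2.31 ± 0.0335% of gene counts at 1.5, 3 and 5 h (SD, n = 3 each). In GMCs they held 1.08 ± 0.0854% at 1.5 h (n = 3), 0.729 ± 0.0747% at 3 h and 0.837 ± 0.115% at 5 h (n = 2 each). Their median log2 ratio on the scale of the rule was -0.99, -1.50 and -1.44, beside -0.30, -0.55 and -0.47 for all 6977 genes past the floor. The ratio was lowest at 3 h for 187 genes, at 5 h for 135 and at 1.5 h for 3. On this scale the median of all genes past the floor was lowest at 3 h as well.

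**Figure D1:**
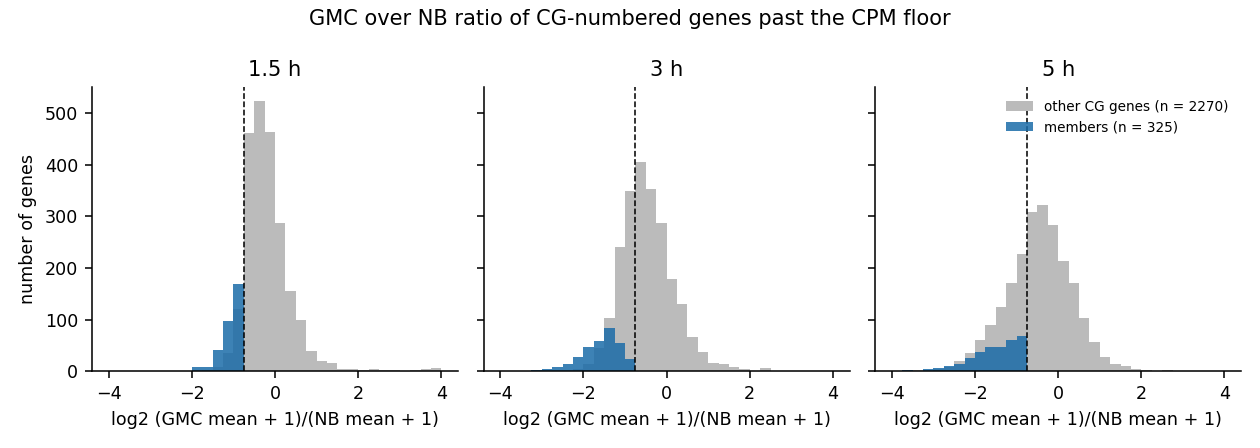
Log2 ratio of the GMC mean over the NB mean (x axis, CPM with 1 added) against the number of genes (y axis) at each age, for the 325 members (blue) and the 2270 other CG genes past the floor (grey); the dashed line is the threshold of -0.75. The grey genes also lie below 0 for the most part, with medians over all CG genes past the floor of -0.34, -0.62 and -0.56.

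The median of all genes lies below 0 on this scale, and the number of members depends on the scaling. A single non-coding RNA, CR43283, took 18.7 ± 2.75%, 24.6 ± 4.02% and 9.0 ± 2.91% of gene counts in GMCs and 4.58 ± 0.511%, 5.30 ± 1.36% and 0.814 ± 0.304% in NBs. With CR43283 and Dcr-2 out of the totals, the median of all genes past the floor was -0.07, -0.22 and -0.35 at 1.5, 3 and 5 h. On that scale 147 genes met the rule, all of them among the 325, and 38 met the mirrored rule. With TMM scaling, which sets libraries level on the bulk of their genes, 104 met it (55 mirrored), and with median-ratio scaling 107 (54 mirrored). Every one of the 325 stayed below 0 at each age under both scalings, the nearest to 0 at -0.25. That outcome was largely built in, since the rule had cut the members well below 0 and each scaling moved the ratios as a whole. With TMM scaling the median of all genes past the floor went from -0.55 to -0.04 at 3 h and from -0.47 to 0.01 at 5 h. Staying below 0 therefore says little of how firm the set is. The levels below are CPM on TMM library sizes unless another scale is named.

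**Figure D2:**
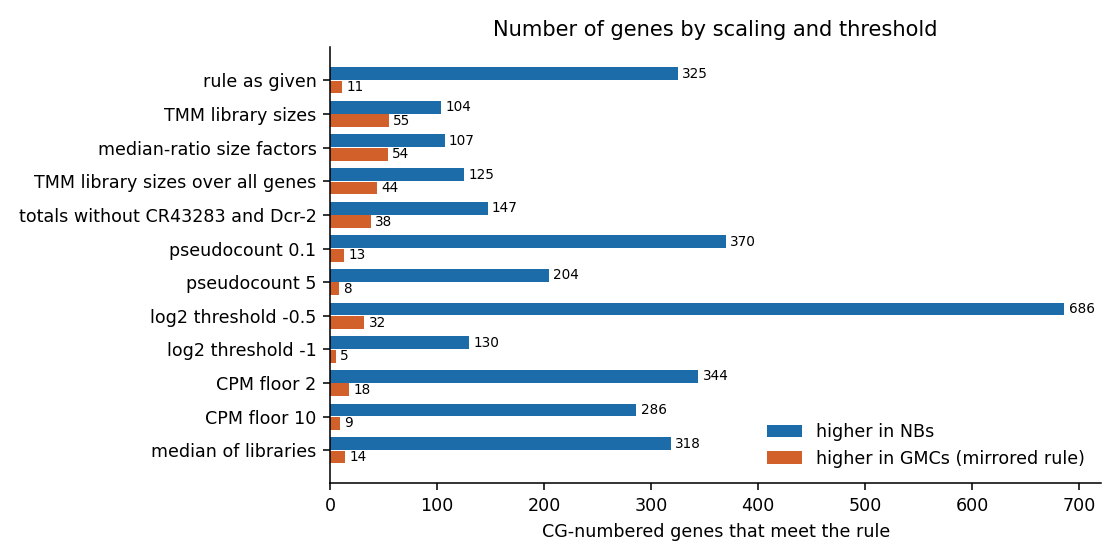
Number of CG genes (x axis) that meet the rule (blue) or its mirror image (orange) under the rule as given and under each other scaling, pseudocount, threshold, floor or average (y axis). The count falls from 325 to between 104 and 147 under the other scalings, and the mirrored count rises from 11 to between 38 and 55.

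The thresholds cut through a continuous range. Just inside the ratio threshold lay CG2970, CG10254 and CG4300, with a largest ratio of -0.750061, -0.750834 and -0.751267, and just outside lay CG9993, CG10286 and CG10803, with -0.749242, -0.749038 and -0.749032. Just above the floor were CG42854 and CG13390, with means of 5.09 and 5.20 CPM, and just below it CG8128 and CG8607, with 4.91 and 4.82 CPM.

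The difference between GMCs and NBs is what chose these genes, so its counts are given only as a description. By edgeR's quasi-likelihood fit, 238, 248 and 216 of the 325 were lower in GMCs at 1.5, 3 and 5 h with an adjusted p under 0.05, where 8.97%, 10.5% and 14.0% of the 10913 genes tested were. Of the 325, 149 were called at all 3 ages, as were 4.13% of all genes tested, and 26 at none. The authors' deposited tables call 278, 285 and 235 of them lower, beside 10.8%, 16% and 16.6% of all genes with an adjusted p there. The CPM ranges of the groups did not overlap for 319, 304 and 262, against 22.4%, 23.0% and 23.1% of all genes tested. For 135 of the 325, every NB library of any age was above every GMC library of any age, as for 4.02% of all genes tested. On the TMM scale the median log2 fold change of the 325 was -0.81, -1.09 and -1.02, beside 0.04, 0.07 and -0.12 for all genes tested.

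The members with the highest levels per length in NBs are given first, in TPM (reads scaled by gene length and library, computed from exon length for 320 of the 325, with a median of 53.3 in NBs). CG6330 (FBgn0039464, 3R 26949692 to 26958491 in release 6 coordinates) was the highest, with a mean of 674 TPM in NBs and 159 TPM in GMCs. Its level in NBs was 506, 505 and 430.4 CPM at 1.5 h, 527, 493 and 504 CPM at 3 h and 585, 532 and 487 CPM at 5 h. In GMCs it was 183, 184 and 173 CPM at 1.5 h, 124 and 115 CPM at 3 h and 87.2 and 93.8 CPM at 5 h. No GMC library reached any NB library, and the NB mean was 2.67-fold, 4.26-fold and 5.91-fold the GMC mean. The GMC level fell between 1.5 and 5 h (edgeR log2 fold change -0.99 ± 0.154 (SE), adjusted p = 0.000196). In NBs the same comparison gave 0.15 (edgeR adjusted p = 0.48).

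Next by TPM came CG5355 with 624 TPM in NBs, then CG2051, now Hat1, with 575 TPM and CG6767, now Prps, with 543 TPM. CG1607, CG5174, CG8531 and CG4300, now Sms, followed with 527, 433, 303 and 299 TPM. CG5355 was at 630.0, 564 and 540.4 CPM in the NBs, against 393, 405 and 378 CPM in the GMCs of 1.5 h, 1.48-fold apart with no overlap. Its level fell in both cell types between 1.5 and 5 h, to 379, 435 and 376 CPM in NBs (edgeR log2 fold change -0.54, adjusted p = 0.0145) and to 282 and 275 CPM in GMCs (-0.49, adjusted p = 0.0193). CG1607 (FBgn0039844, 3R 31382109 to 31391893) drew apart with age. It was at 431, 512 and 448 CPM in the NBs, against 206, 232 and 168 CPM in the GMCs of 1.5 h, and at 553, 689 and 787 CPM and 54.6 and 108 CPM at 5 h. The fold between the cell types was 2.29 at 1.5 h, 3.99 at 3 h and 8.32 at 5 h.

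The members with the most negative mean ratio were CG7730, CG2990 (now Dna2), CG1607, CG12643, CG6330, CG8778, CG31643 and CG12911. CG7730 (FBgn0036689, 3L 17027515 to 17029814) was at 61.7, 61.03 and 52.2 CPM in the NBs, against 15.1, 19.3 and 14.9 CPM in the GMCs of 1.5 h. At 3 h it was at 54.7, 47.6 and 50.7 CPM against 7.34 and 6.35 CPM, and at 5 h at 53.3, 71.01 and 60.9 CPM against 6.37 and 4.70 CPM. All NB libraries lay far above all GMC libraries, 3.54-fold, 7.50-fold and 11.1-fold in the means. CG12643 (FBgn0040942, X 10264233 to 10265263) began closer. It was at 102, 103 and 74.3 CPM in the NBs, against 62.2, 64.4 and 56.8 CPM in the GMCs of 1.5 h, a 1.52-fold difference. That difference was not called (edgeR adjusted p = 0.0715). Without CR43283 and Dcr-2 in the totals, the ratio of CG12643 at 1.5 h was -0.59, so it no longer met the rule. By 5 h the GMC libraries were at 7.48 and 8.32 CPM and the NB libraries at 109, 81.6 and 98.8 CPM, 12.2-fold apart.

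Dna2 (CG2990) is a nuclease and helicase that trims DNA flaps during replication, as known from yeast and human. Its level was 79.3, 96.2 and 94.8 CPM in the NBs, against 22.9, 28.4 and 25.96 CPM in the GMCs of 1.5 h. The level in NBs of 5 h was uneven, with 36.6, 118 and 89.5 CPM, the lowest being replicate 1, but all 3 were above the 14.2 and 13.3 CPM of the GMCs. CG8778 differed 6.16-fold and CG31643 3.90-fold at 3 h. The difference in CG12911 went from 5.53-fold at 3 h to 3.05-fold at 5 h: its GMC libraries were at 14.5 and 19.7 CPM and then at 44.1 and 40.4 CPM.

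**Figure D3:**
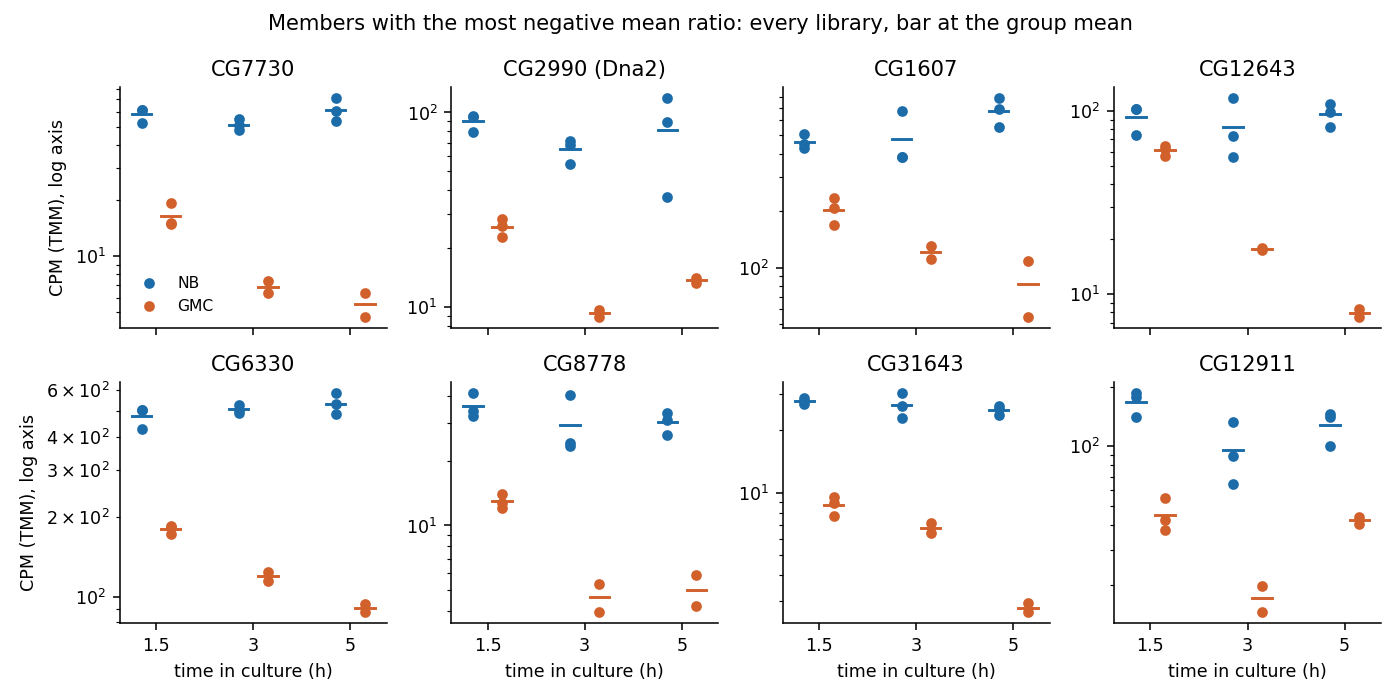
CPM on TMM library sizes (log axis, its range set for each gene) of the 8 members with the most negative mean ratio, by time in culture; points are libraries (blue NB, orange GMC) and bars are group means. In every panel and at every age the NB libraries lie above the GMC libraries, and CG12643 goes from a 1.52-fold to a 12.2-fold difference.

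Among the members with a name in the reference tables, 64 have a role that could be grouped, 41 by their symbol and 23 by a synonym. Of all 325 members, 73.2%, 76.3% and 66.5% were called lower in GMCs at 1.5, 3 and 5 h. Of all genes tested, 8.97%, 10.5% and 14.0% were. Of the 14 that work in ribosome and tRNA production, 8, 8 and 9 were called lower in GMCs at 1.5, 3 and 5 h, with a median log2 fold change of -0.70, -0.84 and -0.73. They include Rrp5 (CG5728) and Noc2 (CG9246), factors of pre-ribosome assembly known from yeast, and Bdp1 (CG9305), a subunit of the initiation factor of RNA polymerase III. Rrp5 was at 249, 249 and 277 CPM in the NBs, against 125, 165 and 144 CPM in the GMCs of 1.5 h. At 5 h it was at 242, 441 and 379 CPM and 217 and 337 CPM, so the groups were apart at 1.5 h and overlapped at 5 h. Dus1 (CG3645), a tRNA dihydrouridine synthase, had the most negative value of the group at 3 h, -1.57. A list of 14 ribosome biogenesis genes that are no members had 2, 3 and 2 called lower and medians of -0.12, 0.00 and -0.12.

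Of the 10 members that make nucleotides and NAD or act on DNA and histones, 7, 6 and 9 were called lower in GMCs, with medians of -0.83, -1.10 and -1.41. Prps (CG6767) makes phosphoribosyl pyrophosphate, the sugar from which nucleotides are built. It was at 531, 485 and 414 CPM in the NBs, against 387, 328 and 226 CPM in the GMCs of 1.5 h, while at 5 h its ranges overlapped, with 256, 470.4 and 391 CPM and 181 and 293 CPM. Hat1 (CG2051, FBgn0037376, 3R 5787337 to 5789384) acetylates newly made histone H4 before it is built into chromatin. It was at 377, 328 and 324 CPM in the NBs, against 194, 178 and 189.9 CPM in the GMCs of 1.5 h, and at 255, 299 and 258 CPM and 84.2 and 81.95 CPM at 5 h. Between 1.5 and 5 h Hat1 was not called in NBs (log2 fold change -0.34, edgeR adjusted p = 0.195) and fell in GMCs (-1.17 ± 0.194 (SE), edgeR adjusted p = 0.000336). Of 18 tested genes of a DNA replication list, none a member, 10, 13 and 15 were called lower in GMCs, with medians of -0.65, -1.05 and -1.46. Of 14 mitosis genes 7, 7 and 5 were called lower and 0, 1 and 4 higher, and of 10 glycolysis genes 5, 7 and 9 were called lower.

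Of the 6 members that act on amino acids and polyamines, 6, 6 and 4 were called lower in GMCs. The shares over all members were 73.2%, 76.3% and 66.5%. ALT (CG1640), alanine aminotransferase, was at 133, 125 and 117 CPM in the NBs, against 26.4 and 30.8 CPM in the GMCs of 3 h, 4.35-fold apart with no overlap. Sms (CG4300), spermine synthase, was 1.68-fold apart at 3 h. Its ratios on the scale of the rule were -0.75, -1.27 and -0.88 at 1.5, 3 and 5 h. Of the 12 that belong to mitochondria and lipid metabolism, 7, 12 and 7 were called lower. Among them mIF3 (CG13163), a mitochondrial translation initiation factor, had -1.84 at 3 h and Acadvl (CG7461), a fatty acid dehydrogenase, -1.16. Mvd (CG8239), an enzyme of the mevalonate pathway, had -0.58 at 1.5 h and -2.21 at 5 h. All these are log2 fold changes of GMCs over NBs.

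The remaining groups were smaller. Of 9 members of the ubiquitin system, 8, 8 and 6 were called lower in GMCs, among them Cul6 (CG11261), a cullin scaffold, and AMSH (CG2224), which removes ubiquitin at endosomes in human cells and had a log2 fold change of -2.17 at 3 h. Of 7 members that make GPI anchors and sugar chains, 5, 5 and 4 were called lower, including PIG-L (CG4433), which acts early in anchor synthesis, with -1.44 at 3 h. Of 6 members that act on vesicles, endosomes and lysosomes, 6, 5 and 2 were called lower, with medians of -0.67, -0.87 and -0.47. These groups were drawn up with the values of the members known, and the members were chosen for being lower in GMCs. Their counts are to be read beside the shares over all members, and no group was tested against the rest.

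**Figure D4:**
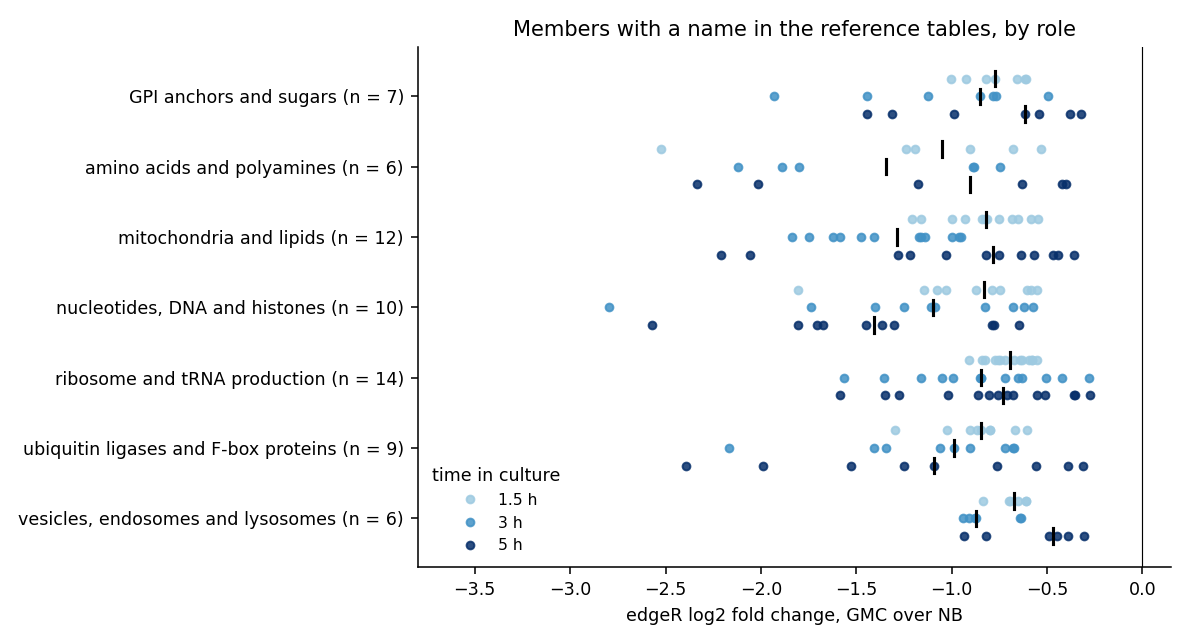
Log2 fold change of GMCs over NBs from edgeR (x axis) for the 64 members with a grouped role (y axis, number of genes in brackets); each point is a gene, shaded by time in culture, and the black bar is the median. All points lie below 0, as the members were chosen for that difference, and Dna2 at 3 h lies farthest left at -2.79.

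Other members with a name and high NB levels fall outside these groups. HisT (CG1358) was at 235, 242 and 212 CPM in the NBs, against 60.5 and 65.7 CPM in the GMCs of 5 h. Veneno (CG9684), whose namesake in the mosquito Aedes aegypti is a Tudor protein of the piRNA pathway, was at 97.05, 134 and 146 CPM in the NBs and 63.4 and 56.9 CPM in the GMCs of that age. Ugt316A1 (CG3797), a UDP-glycosyltransferase, was apart at 1.5 h and overlapped at 5 h, at 143, 268 and 239 CPM in NBs and 183 and 167 CPM in GMCs.

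How the members moved with time in culture was tested within each cell type. The rule does not use this contrast directly, but it used the same GMC and NB values at each age. A gene that rose in GMCs alone was less likely to meet the rule, and one that fell in GMCs more likely. The counts therefore describe the chosen genes and are no independent result. In GMCs the members that changed between 1.5 and 5 h mostly fell: 83 of 325 were lower at 5 h and 16 higher, where 13.3% and 17.0% of all genes tested were (edgeR, adjusted p under 0.05). The median log2 fold change was -0.27, beside -0.13 for all genes tested. Of the 147 members that meet the rule without CR43283 and Dcr-2, 38 fell and 4 rose. Without GMC replicate 2 of 5 h, 49 of the 325 fell and 5 rose, beside 5.60% and 8.35% of all genes tested. Between 1.5 and 3 h, 31 fell and 1 rose, beside 1.64% and 1.32% of all genes, and 14 members fell in both comparisons, beside 0.880% of all genes. That step rested on all its libraries: leaving out any one of them left between 0 and 10 calls, with 0 without GMC replicate 1 of 3 h, 4 without GMC replicate 2 of 3 h, and 10, 7 and 2 without GMC replicate 1, 2 and 3 of 1.5 h. DESeq2 called 72, of which 71 were lower, beside 4.78% of all genes that were lower.

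CG12643 and CG7730 fell in GMCs against 1.5 h at both later ages, and neither was called in NBs. For CG12643 the GMC level of 62.2, 64.4 and 56.8 CPM at 1.5 h became 17.9 and 17.4 CPM at 3 h and 7.48 and 8.32 CPM at 5 h, with no overlap between ages. The edgeR log2 fold changes were -1.80 ± 0.273 (SE) at 3 h (adjusted p = 0.00397) and -2.95 ± 0.294 (SE) at 5 h (adjusted p = 3.72e-06). In NBs the 5 h change was 0.05 (adjusted p = 0.909). For CG7730 the values in GMCs were -1.27 ± 0.22 (SE) at 3 h (edgeR adjusted p = 0.00918) and -1.56 ± 0.222 (SE) at 5 h (edgeR adjusted p = 9.55e-05). ALT also fell at 3 h (-1.05 ± 0.187 (SE), edgeR adjusted p = 0.00918). The 3 h calls of all 3 genes were lost without either GMC library of 3 h, with edgeR adjusted p-values from 0.0589 to 0.228, and that of ALT also without GMC replicate 3 of 1.5 h (0.0562).

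The falls at 5 h with the smallest adjusted p after CG12643 were those of Ktch and CG6231. Ktch (CG15556) was at 85.5, 74.8 and 64.00 CPM in the GMCs of 1.5 h and 13.6 and 17.8 CPM at 5 h (edgeR log2 fold change -2.25 ± 0.262 (SE), adjusted p = 1.64e-05). In NBs it went from 142, 125 and 127 CPM to 39.7, 64.5 and 74.5 CPM, a fall by the test as well (-1.14, edgeR adjusted p = 0.00316). CG6231 went from 42.8, 37.4 and 31.9 CPM to 7.48 and 4.82 CPM in GMCs (edgeR log2 fold change -2.59 ± 0.309 (SE), adjusted p = 1.93e-05) and fell in NBs too. In all, 19 members fell in both cell types between 1.5 and 5 h, 5 rose in both, and 2 fell in GMCs and rose in NBs, beside 1.92%, 2.99% and 0.871% of all genes tested.

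The rises in GMCs of 5 h with the smallest adjusted p were those of CG10254, CG33172 and CG11975. CG33172 was at 10.9, 10.4 and 14.7 CPM in the GMCs of 1.5 h, 5.08 and 7.28 CPM at 3 h and 40.9 and 38.6 CPM at 5 h (5 h against 1.5 h, edgeR log2 fold change 1.73 ± 0.346 (SE), adjusted p = 0.00145). By then its GMC libraries lay within the range of the NB libraries, at 21.2, 71.2 and 60.4 CPM. CG10254 rose in both cell types, with a log2 fold change of 1.50 in GMCs (edgeR adjusted p = 0.000757) and 0.85 in NBs (edgeR adjusted p = 0.037). CG11975 rose in GMCs with 0.88 (edgeR adjusted p = 0.00162).

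Between 3 and 5 h the members in GMCs went both ways: 65 rose and 38 fell, beside 17.2% and 13.0% of all genes tested (edgeR, adjusted p under 0.05). CG1902 was among those that fell. Its GMC libraries were at 43.7, 39.1 and 41.9 CPM at 1.5 h, 52.9 and 44.5 CPM at 3 h and 17.2 and 15.9 CPM at 5 h. Its NB libraries were at 89.5, 75.2 and 75.4 CPM, then 97.00, 79.5 and 81.1 CPM, then 129, 111 and 109 CPM. The 5 h GMC libraries were below all others (5 h against 3 h, edgeR log2 fold change -1.55 ± 0.191 (SE), adjusted p = 7.86e-05). CG8034 also fell in GMCs, with 25.4 and 18.98 CPM at 3 h and 4.95 and 6.03 CPM at 5 h (-2.01 ± 0.262 (SE), edgeR adjusted p = 0.000112). CG31523 rose from 25.98 and 23.8 CPM to 53.97 and 61.1 CPM (1.21 ± 0.209 (SE), edgeR adjusted p = 0.000819). The count of 103 calls was 37 and 65 without GMC replicate 1 and 2 of 3 h, and 49 and 66 without GMC replicate 1 and 2 of 5 h.

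Markers of other cells moved with the age of the GMCs. The summed level of the 11 neuron markers was 1437 to 1721 CPM in the GMCs of 1.5 h, 1747 to 1980 CPM at 3 h and 6237 to 6812 CPM at 5 h, that of the 10 glia markers 705 to 919.8, 1044 (both libraries) and 1157 to 1217 CPM, and that of the 6 optic lobe markers 63.4 to 72.3, 100.9 to 105.4 and 281 to 336 CPM. Single markers went both ways between 1.5 and 5 h: 2 of 11 neuron markers rose and 5 fell, 2 of 10 glia markers rose and 4 fell, and 2 of 6 optic lobe markers rose and 1 fell. The summed level of 5 markers of the type II NB lineage was 35.7 to 47.7, 65.7 to 68.1 and 81.0 to 91.7 CPM. Of these 5, 4 rose and 0 fell between 1.5 and 5 h. The neuron marker elav reached 5213 CPM at 5 h from 626 CPM, and the glia marker repo went from 3.37 to 0.988 CPM. None of these markers was at 0 in all libraries. Their part in the changes of the members was not tested.

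In NBs a single member was called between 1.5 and 3 h. Bcat (CG1673, FBgn0030482, X 13396899 to 13401224), the branched-chain amino acid transaminase, rose, beside 0.0733% of all genes that rose and 0.0275% that fell, with 0 members lower. It was at 4.14, 4.12 and 5.43 CPM in NBs of 1.5 h, 30.6, 29.1 and 38.8 CPM at 3 h and 2.91, 27.99 and 20.6 CPM at 5 h. In GMCs it was at 1.09, 0.513 and 0.711, then 10.4 and 7.52, then 3.64 and 3.13 CPM. Every 3 h library was above every 1.5 h library of its cell type, and NB replicate 1 of 5 h was at the level of 1.5 h. The edgeR log2 fold change of 3 h over 1.5 h was 2.84 ± 0.515 (SE) in NBs (adjusted p = 0.0456) and 3.48 ± 0.637 (SE) in GMCs (adjusted p = 0.0113). The NB call was lost without any single library of its 2 groups (edgeR adjusted p 0.0653 to 0.317), and the GMC call without GMC replicate 2 or 3 of 1.5 h or replicate 1 or 2 of 3 h (0.0524 to 0.129). The summed level of the 9 hemocyte and fat body markers was 6.24 to 10.1 CPM in NBs and 6.33 to 8.39 CPM in the GMCs of 1.5 h, and 17.6 to 104.3 CPM and 75.6 to 76.2 CPM at 3 h. Their part in the rise of Bcat was not tested.

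Between 1.5 and 5 h, 28 members fell and 13 rose in NBs, beside 4.0% and 7.28% of all genes tested (edgeR, adjusted p under 0.05). CG44085 had the largest fall among the called members. Its NB libraries were at 178, 173 and 183 CPM at 1.5 h, 82.5, 114 and 105 CPM at 3 h and 55.9, 10.9 and 12.1 CPM at 5 h, where replicate 1 was the highest. The log2 fold change was -2.76 ± 0.449 (SE) (edgeR adjusted p = 0.00136), and in GMCs it was -3.63 ± 0.576 (SE) (edgeR adjusted p = 0.000247). CG2865 fell from 139, 152 and 122 CPM to 40.3, 74.2 and 59.9 CPM in NBs (-1.25 ± 0.205 (SE), edgeR adjusted p = 0.00147). CG12182 also fell (-1.13, edgeR adjusted p = 0.00151), with 34.4% of its exon length shared with another gene.

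Among the rises, Nadsyn (CG9940, FBgn0030512, X 13684380 to 13718285), the enzyme of the last step of NAD synthesis, with 5.14% of its exon length shared with another gene, went from 43.97, 44.2 and 46.9 CPM to 63.97, 104 and 126 CPM in NBs (edgeR log2 fold change 1.12 ± 0.232 (SE), adjusted p = 0.00638). CG14907 (1.41, edgeR adjusted p = 0.00707) and CG2258 (1.22, edgeR adjusted p = 0.0126) rose as well, CG2258 with adjusted p-values of 0.0731 without NB replicate 1 of 1.5 h and 0.0553 without NB replicate 2 of 5 h. RRP12 (CG2691), a factor of pre-ribosome export known from yeast, was at 60.4, 116 and 163 CPM at 3 h and 253, 319 and 341 CPM at 5 h (1.43 ± 0.259 (SE), edgeR adjusted p = 0.00301). CG9265 fell over the same step, from 50.3, 29.99 and 44.2 CPM to 11.6, 9.19 and 7.02 CPM (-2.16 ± 0.306 (SE), edgeR adjusted p = 0.000698). In that comparison 29 members rose and 13 fell, beside 10.6% and 3.14% of all genes.

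The NB counts moved with single libraries. Without NB replicate 1 of 5 h, which stands apart, 39 members rose and 25 fell between 1.5 and 5 h, beside 13.3% and 7.98% of all genes; the share of members that fell was then near that of all genes. Between 3 and 5 h, 64 then rose and 20 fell, beside 18.8% and 14.6% of all genes. The count of calls between 1.5 and 5 h was 14, 17 and 18 without NB replicate 1, 2 and 3 of 1.5 h and 14 without NB replicate 3 of 5 h, and that between 3 and 5 h was 24 and 18 without NB replicate 2 and 3 of 5 h. With only the groups of 3 and 5 h in the fit, 0 members rose and 2 fell, beside 0.177% and 0.240% of all genes. The summed level of the 11 neuron markers in NBs was 1032 to 1126 CPM at 1.5 h and 1129 to 1630 CPM at 5 h, and 7 of the 11 rose. Their part in the changes of the members was not tested.

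**Figure D5:**
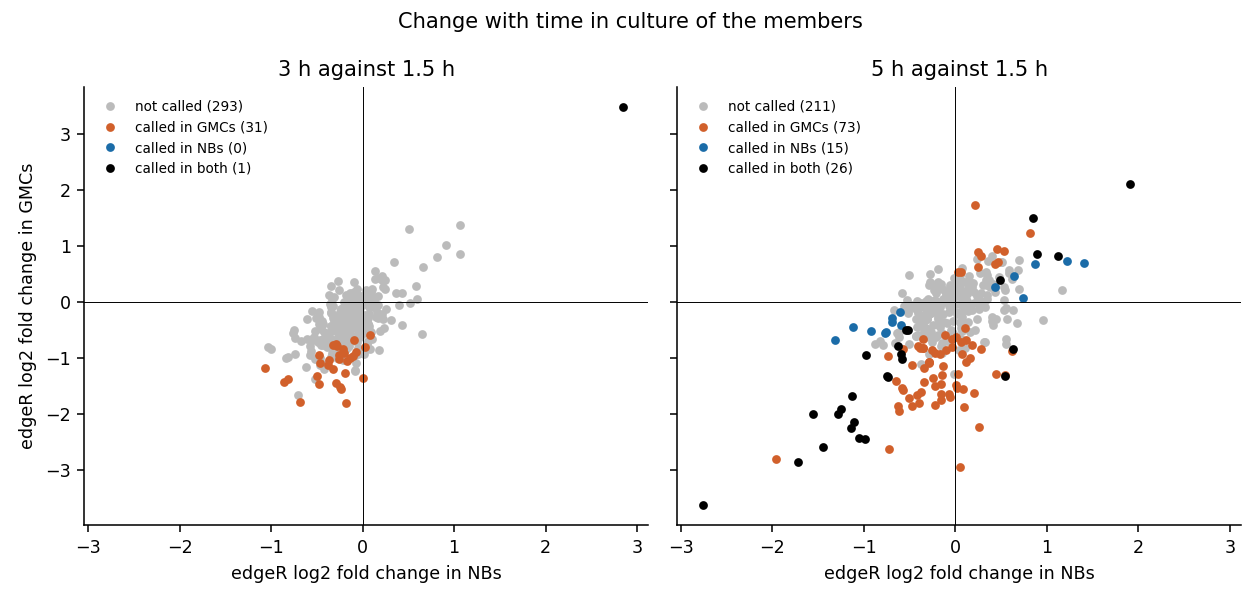
Change with time in culture of the 325 members, as edgeR log2 fold change in NBs (x axis) and GMCs (y axis), at 3 h against 1.5 h (left) and 5 h against 1.5 h (right); colour marks where the change was called. Bcat lies alone at the upper right of the left panel, and most called genes of the right panel lie below 0 in GMCs.

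In structure the members were close to the other CG genes, with no test made. Of 320 found in the reference annotation, 319 are protein coding, with a median exon length of 2004.5 bases and a median of 4 exons, against 1914 bases and 4 exons for the other CG genes past the floor. A single exon makes up 12.5% of them, beside 10.7% of the others. They lie on X (49), 2L (63), 2R (71), 3L (57) and 3R (85). None is on chromosome 4, where 13 other CG genes past the floor lie.

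Some members are neighbours of other members: 45 genes form 23 such pairs, of which 7 start back to back with gaps under 500 bases. Among these 7 the shortest gap, 57 bases, lies between CG13775 (2L 6954357 to 6956950) and CG3430 (2L 6957008 to 6959104). Both fell in GMCs between 1.5 and 5 h, with log2 fold changes of -0.91 for CG13775 (edgeR adjusted p = 0.00768) and -1.32 for CG3430 (edgeR adjusted p = 7.47e-05). CG32786 and CG32783, now Gem4b and Gem4c, are paralogs by name and lie 777 bases apart, and 6 pairs overlap: CG8043 with CG11755, CG32278 with CG32281, CG6678 with CG43844, CG4627 with CG4630, CG11475 with CG11474, and CG11158 with CG9940 (Nadsyn). The counts of Gem4b, Gem4c and the genes of the 6 overlapping pairs are uncertain. The strand setting of the counting is unknown here, and 135 members share exon sequence with a gene on the other strand, while 18 share over 20% of their exon length with another gene.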

How the data were processed

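Whole-number counts for 16364 genes in 16 libraries are used as deposited, without normalization. Entries that name no gene were left out of totals and tests: no feature (group means 10.6% to 14.2%), ambiguous (1.52% to 1.97%) and multiply aligned (26.8% to 32.2%). Per the labels' protocols, cDNA came from oligo-dT priming and went through a Nextera kit whose index primer held random octamers; whether these barcodes served in counting is unknown here. The submitters' processing notes name HTSeq 0.6.1, TopHat2 2.1.1, BWA 0.7.12, DESeq2 1.12.4 and bedtools 2.26.0, in no stated role. Build, annotation and strand setting were not given in what was used. The comparison tables of the authors hold, per the file headers, log2 fold changes with an error and test score, and p-values. Their coordinates match release 6 (Ensembl 115) for 16086 of 16208 genes found there.

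The counts were fitted with edgeR 4.0.16 (R 4.3.3, limma 3.58.1): a quasi-likelihood model of all 16 libraries in 6 groups, TMM scaling and filterByExpr (minimum count 10, total 15), which kept 10913 genes, all 325 members among them, with Benjamini-Hochberg adjustment over all of them. A gene was called at an adjusted p under 0.05, two-sided. TMM factors for levels were first computed over all genes and then, after that count of members had been seen, over the genes that pass the filter, to share one scale with the test; both counts are given. The model was run on simulated counts with 200 changed genes and the common dispersion (0.0782) for every gene. For NBs at 5 h against 1.5 h it recovered 27% of 2-fold and 96% of 4-fold changes. For GMCs it recovered 20% and 87%. Of its calls, 2.38% and 2.73% were false. Most 2-fold changes were missed, so a gene that was not called may still have changed. TPM used exon-union length. Roles come from current symbols or RefSeq synonyms. Named genes follow a rule: 8 by TPM in NBs, 8 by mean ratio, up to 3 each way per age comparison by adjusted p among called members without overlap, those nearest the thresholds, neighbour pairs, and 10 with another symbol. Dus1, mIF3, Acadvl, Mvd, Cul6, AMSH and PIG-L fall outside it and were chosen after their values were seen. The members, lists and rules were chosen with earlier results of these data known. Whether the difference between GMCs and NBs changed with age was not tested, since the rule used its parts. Alternatives were other scalings, pseudocounts, thresholds, floors, DESeq2 1.42.0, no filter, blocking by replicate, fits of single pairs of groups, and each library left out.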

Additional observations from a re-analysis of the deposited data

Results flagged for a closer look

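In CG1607, CG1902 and CG5174, named for their level, ratio or change with age, every NB library of the later age was above, and every GMC library below, those of the earlier age. Over all 325 members, 9 did so at 5 h against 1.5 h and 7 at 5 h against 3 h, beside 2.72% and 1.33% of all genes tested. The first of these is near the share of all genes. The opposite pattern, lower in NBs and higher in GMCs, held for 3 and 5 members, beside 2.51% and 0.770%. Whether the cell types differed in their change with age was not tested. CG1607 had a log2 fold change of 0.54 in NBs and -1.31 in GMCs at 5 h against 1.5 h. CG1902 had 0.54 in NBs and -1.33 in GMCs at 5 h against 1.5 h, and 0.44 and -1.55 at 5 h against 3 h. The NB change of CG1607 was not called (edgeR adjusted p = 0.172). That of CG1902 was called at 5 h against 1.5 h (edgeR adjusted p = 0.0266) and not at 5 h against 3 h (0.0566). CG5174 had 0.40 in NBs and -0.27 in GMCs at 5 h against 1.5 h.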

How the results depend on the processing

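The number of genes that meet the rule was 104 with TMM scaling (125 with TMM factors over all genes, the version computed first, kept here as an alternative added after seeing the data), 107 with median-ratio scaling, 147 without CR43283 and Dcr-2 in the totals, 204 with a pseudocount of 5, 686 at a threshold of -0.5 and 130 at -1; leaving out one library gave 262 to 398. Leaving out one library gave 0 members called in every case for NBs at 3 h against 1.5 h, 14 to 64 at 5 h against 1.5 h and 18 to 84 at 5 h against 3 h, and 0 to 10, 54 to 87 and 37 to 66 for the same comparisons in GMCs. A group of 2 then leaves 1 library, taken to vary like the other groups. DESeq2 called 4 members for NBs at 3 h against 1.5 h and 72 for GMCs, and a fit of only the groups compared called 2 and 77 there and 2 for NBs at 5 h against 3 h. Same-numbered libraries varied together in some pairs and not in others (for NBs at 1.5 and 3 h, r = 0.672, 0.0074 and 0.449), so the numbers are not taken as pairs. With a replicate block, 1 member rose and 1 fell for NBs at 3 h against 1.5 h, beside 0.0916% and 0.128% of all genes. The members that rose in NBs went from 13 to 20 at 5 h against 1.5 h, beside 9.27% of all genes with the block. At 5 h against 3 h they went from 29 to 44, beside 13.1%. Over the named genes in the age comparisons, 303 alternative values kept direction and call, 23 lost the call and 0 reversed. Those genes were picked for the smallest adjusted p in the main fit, so keeping the call is largely built in and says little of the other members. The cause of the shifts between settings was not tested. Between-age comparisons are limited by groups of 2 or 3 libraries, each age on its own flow cell, and by the far lower Dcr-2 level at 5 h.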

Other observations

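In a principal component analysis of the 325 members alone, PC1 (66.1% of the variance) placed every NB library below 0 and every GMC library above 0, the difference they were chosen for. PC2 (14.9%) placed the 5 h libraries between 6.87 and 8.65, except NB replicate 1 of 5 h at 0.34; all 1.5 and 3 h libraries were below 0. No member had 0 counts in any library.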
